A study of Mus musculus with 2 samples.

Results

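Of the 32285 genes in the count tables, 7 were followed across the cell classes of 2 mouse liver libraries: the metallothioneins Mt1 and Mt2, the zinc importers Slc39a14 and Slc39a4, the zinc and manganese exporters Slc30a1 and Slc30a10, and the metal-sensing transcription factor Mtf1. They were picked by gene symbol, with their UMI counts in hepatocytes of both libraries already known, so their levels and ratios are given as a description and without a test. All 7 were found in both libraries, and all 7 reached 5 CPM (the UMIs of a gene scaled to 1000000 UMIs of the class) in at least 1 library in hepatocyte-like cells.

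Single-cell RNA sequencing had been run on livers dissociated with collagenase, and each group gave 1 droplet library. Control liver (genotype label CTRL) is called WT here. N-LKO is liver plus tumor of mice whose hepatocytes lack NgBR, the product of Nus1 (genotype label NgBR KO). Nus1 carried loxP sites around its first exon and was deleted by Cre under the albumin promoter, which is active in hepatocytes, so the other liver cells keep the gene. Both groups were kept on the diet for 16 weeks, which the treatment labels call WD and the titles HFD. Hepatocytes and nonparenchymal cells, and in N-LKO tumor cells as well, had been mixed in set proportions. Genotype, tumor tissue and library therefore cannot be told apart in any comparison below, and numbers of cells per class are not compared. Intervals are 95% intervals and cover counting error only.

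The WT library held 85522287 UMIs over 100171 barcodes and the N-LKO library 87575064 UMIs over 90147. After filtering, 18435 WT and 19850 N-LKO cells remained, with medians of 1400 and 1454 UMIs. They formed 23 clusters, of which 19 were named from markers. Of the cells kept, 2.62% in WT and 2.84% in N-LKO carried a barcode that was also present in the other library. Hepatocyte-like cells numbered 9956 in WT, 98.8% of them in clusters 1, 10, 18 and 21, and 2103 in N-LKO, 94.5% of them in cluster 6. The classes were thus built from different clusters in the 2 libraries. The 8 hepatocyte markers summed to 52011 CPM in the WT and 49896 CPM in the N-LKO hepatocyte-like cells. A further cluster of 1993 N-LKO cells and 1 WT cell (cluster 7), rich in the nuclear RNA Malat1, raised 2 of the 8 markers and stayed unnamed. Its hepatocyte markers summed to 13174 CPM. The hepatocyte list was still its best match, and its Hnf4a level was 251 CPM, against 157 (WT) and 177 CPM (N-LKO) in hepatocyte-like cells. Cluster 7 held 10.0% of the N-LKO cells and is shown beside the hepatocyte-like class. The WT class keeps a Malat1-rich cluster (18) while the N-LKO class leaves cluster 7 out, so the 2 classes are not built alike. Barcodes under 500 UMIs (18526 in WT, 13674 in N-LKO) served as the background, because RNA set free by broken cells enters every droplet.

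Nus1 itself had 72.9 (WT) and 38.8 CPM (N-LKO) in hepatocyte-like cells. The reads come from the 3′ end of the transcript, outside the deleted exon, so this value does not check the deletion. Macrophage-like cells, which keep the gene, held 77.9 CPM (WT) and 76.4 CPM (N-LKO).

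Metallothioneins are small cysteine-rich proteins that bind zinc and copper and buffer the free metal of the cell. Liver is a main site of their synthesis, which rises with zinc, glucocorticoids and inflammatory cytokines. When free zinc rises, MTF-1 binds metal response elements and switches on Mt1, Mt2 and Slc30a1. Proteins of the SLC39 (ZIP) family bring zinc into the cytosol, and those of the SLC30 (ZnT) family carry it out of the cytosol.

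Mt1 and Mt2 lie next to each other on chromosome 8, and matches to the element known to be bound by MTF-1 are shown first. The core of a metal response element was searched as TGCACNC and TGCGCNC on both strands, in the 250 bases before the most downstream start annotated for each gene in GENCODE vM21 (build GRCm38.p6, plus strand; sequence from RefSeq and GENCODE). The window of Mt1, chr8:94178991-94179240, held 5 matches, and that of Mt2, chr8:94172610-94172859, held 4. These starts lie 159 and 196 bases after the most upstream annotated start of Mt1 and of Mt2. Of 32851 RefSeq promoter windows of the same length, 21.4% held at least 1 match, 0.0822% held 5 or more and 0.304% held 4 or more. Each match is printed with 8 bases on either side, 5′ to 3′ on the plus strand, and the capitals mark the match. A match describes the letters and is not a measured binding site.
Mt1, 175 bases before the start: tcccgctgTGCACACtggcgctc
Mt1, 150 bases before the start: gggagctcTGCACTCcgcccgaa
Mt1, 132 bases before the start: ccgaaaagTGCGCTCggctctgc
Mt1, 68 bases before the start: cgcctgctGGGTGCAaacccttt
Mt1, 54 bases before the start: aaacccttTGCGCCCggactcgt
Mt2, 238 bases before the start: ttcgggtcGTGCGCAggcccagg
Mt2, 184 bases before the start: aaaagggcGTGTGCAggcggcgg
Mt2, 165 bases before the start: gcgggggcGCGTGCAtggtgcct
Mt2, 131 bases before the start: ggagctttTGCGCTCgacccaat

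The longest stretch of identical bases between any Mt1 and any Mt2 transcript was 20 bases, so reads of the 2 genes can largely be told apart.

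In hepatocyte-like cells both metallothioneins were far higher in N-LKO than in WT. The 738 Mt1 UMIs of WT made 43.9 CPM (40.8 to 47.2). The 7161 of N-LKO made 1545 CPM (1510 to 1582), a 35.2-fold ratio (32.6 to 38.0). For Mt2, 87 UMIs in WT made 5.18 CPM (4.15 to 6.38) and 1405 UMIs in N-LKO made 303 CPM (288 to 319), a 58.3-fold ratio (47.2 to 73.6). On the log2 scale these ratios were 5.14 (5.03 to 5.25) and 5.86 (5.56 to 6.20). Among the 9932 genes with at least 5 CPM in 1 library, 7 had a larger ratio than Mt1 and 5 a larger ratio than Mt2. The median ratio over these genes was 0.04 (log2). With cluster 7 counted as hepatocyte-like the log2 ratios of Mt1 and Mt2 were 4.44 and 5.27, where the median of all genes was 0.38.

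The background differed between the libraries in the same direction. Barcodes under 500 UMIs held 59.3 (WT) and 591 CPM (N-LKO) of Mt1, and 5.88 and 185 CPM of Mt2. WT hepatocyte-like cells were thus below the background of their own library for Mt1 and within counting error of it for Mt2, while N-LKO hepatocyte-like cells were above theirs for both genes. The part of a hepatocyte-like cell's UMIs that came from the background was estimated from 37 markers of endothelial, Kupffer, T, B and stellate cells. It was 84.5% in WT and 40.7% in N-LKO, and the 5 marker lists taken singly gave 67.9% to 105% in WT and 35.9% to 63.1% in N-LKO. At the joint estimate the background alone would give 50.1 CPM of Mt1 and 4.97 CPM of Mt2 in WT. In N-LKO it would give 241 CPM of Mt1 and 75.4 CPM of Mt2, both below the levels measured. At that estimate neither gene was above the background in WT hepatocyte-like cells as a class. This depended on the marker list, since at the lowest single-list share both WT levels would lie just above the background.

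**Figure D1:**
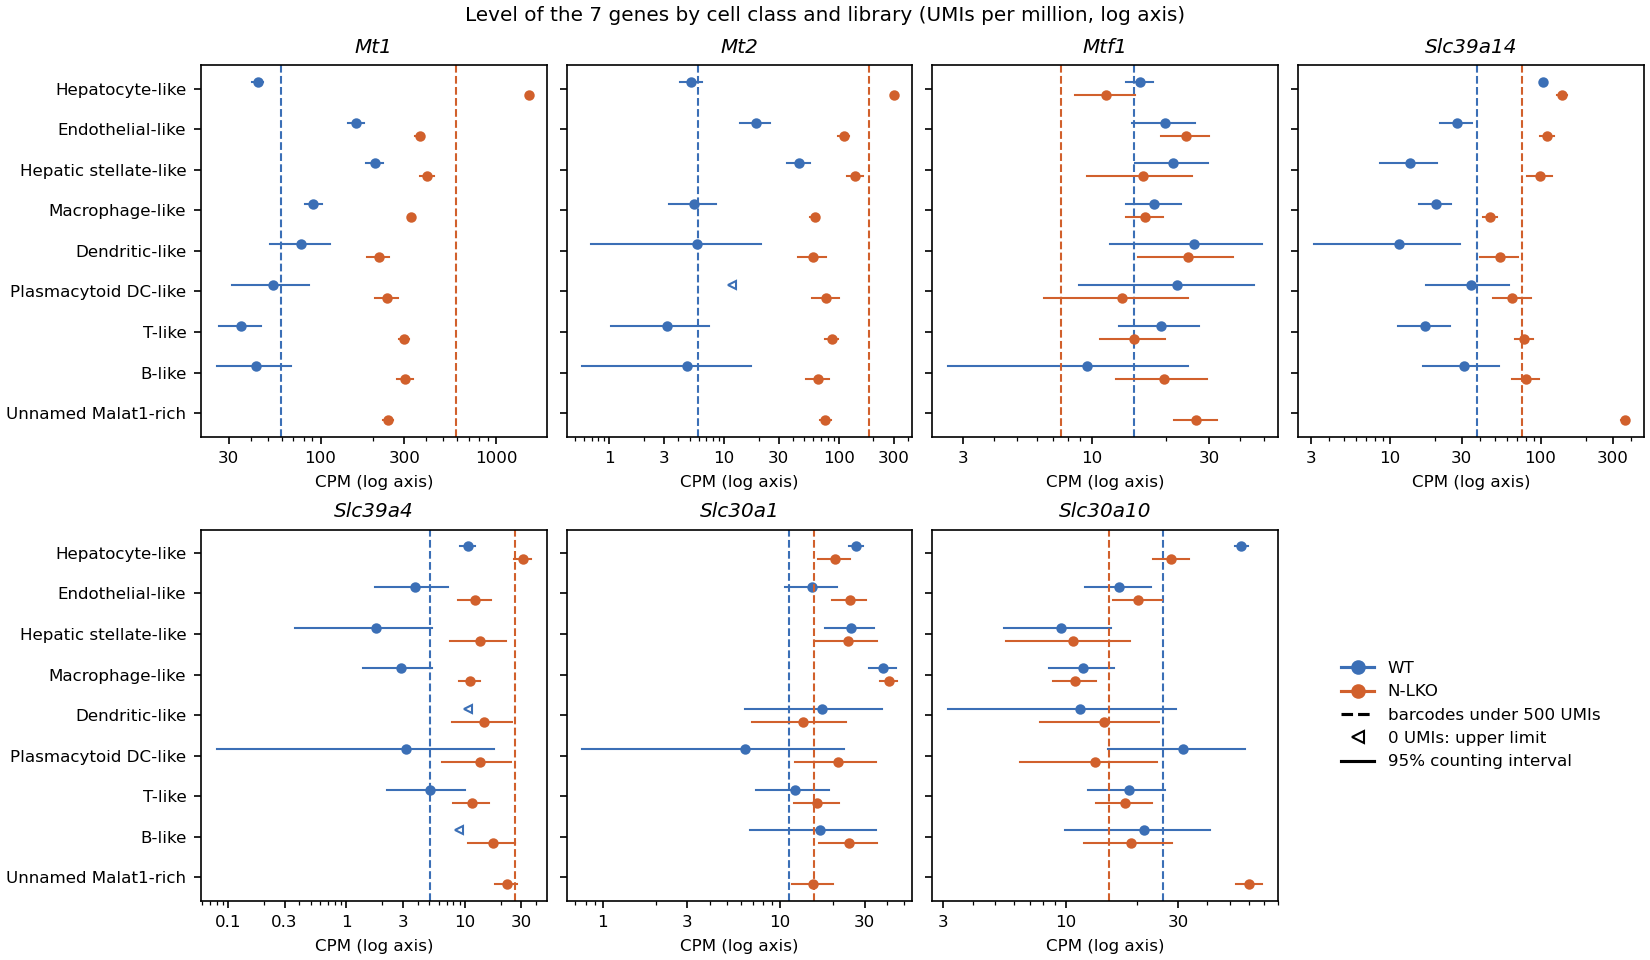
Level of each of the 7 genes in CPM (log axis) by cell class and library. Points are summed UMIs of a class in 1 library, lines are 95% counting intervals, open triangles mark classes with 0 UMIs at their upper limit, and dashed lines show barcodes under 500 UMIs of each library. Mt1 and Mt2 of N-LKO hepatocyte-like cells (1545 and 303 CPM) are the only N-LKO values to the right of the N-LKO background in those panels.

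In the WT library other classes led. Mt1 was highest in hepatic stellate-like cells (204 CPM, 183 to 227), followed by endothelial-like (160 CPM, 144 to 177) and macrophage-like cells (90.9 CPM, 81.1 to 102). Dendritic-like cells (77.7 CPM) and plasmacytoid dendritic-like cells (53.7 CPM) had intervals that overlapped that of macrophage-like cells. B-like cells (43.1 CPM), hepatocyte-like cells (43.9 CPM) and T-like cells (35.0 CPM) were lowest, and their intervals overlapped each other and that of plasmacytoid dendritic-like cells. Mt2 in WT followed the same 2 leading classes, with 44.7 CPM in hepatic stellate-like and 18.9 CPM in endothelial-like cells. Its other WT levels lay between 0 and 5.76 CPM. With 0 UMIs in 227 WT plasmacytoid dendritic-like cells, an Mt2 level of up to 11.7 CPM remains possible there.

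In N-LKO every class carried more Mt1 and Mt2 than in WT. After hepatocyte-like cells, Mt1 was highest in hepatic stellate-like (404 CPM) and endothelial-like cells (367 CPM), and ran from 214 CPM in dendritic-like to 327 CPM in macrophage-like cells elsewhere. All 7 of these classes lay below the 591 CPM of the N-LKO background. Mt2 ran from 59.4 CPM in dendritic-like to 139.5 CPM in hepatic stellate-like cells, again below the background of 185 CPM. For Mt1 the level expected from the background alone was exceeded beyond counting error in 6 of the 7 classes, for example in macrophage-like (327 against 207 CPM), T-like (299 against 255 CPM) and B-like cells (304 against 254 CPM), and not in plasmacytoid dendritic-like cells (238 against 237 CPM). For Mt2 the level expected from the background alone (56.3 to 82.9 CPM over the 7 classes) was exceeded beyond counting error in endothelial-like and hepatic stellate-like cells only. The log2 ratio of Mt1 was 0.99 (0.78 to 1.20) in hepatic stellate-like, 1.20 (1.03 to 1.37) in endothelial-like, 1.84 (1.68 to 2.02) in macrophage-like and 3.08 (2.70 to 3.51) in T-like cells. With the background subtracted these ratios were 0.33, −0.38, 0.77 and 2.38. The value for T-like cells rests on 12.5 WT UMIs left of 55, a WT level not above the background beyond counting error. In dendritic-like cells the ratio was 1.44 before and −0.83 after subtraction, so the direction in endothelial-like and dendritic-like cells depended on it.

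**Figure D2:**
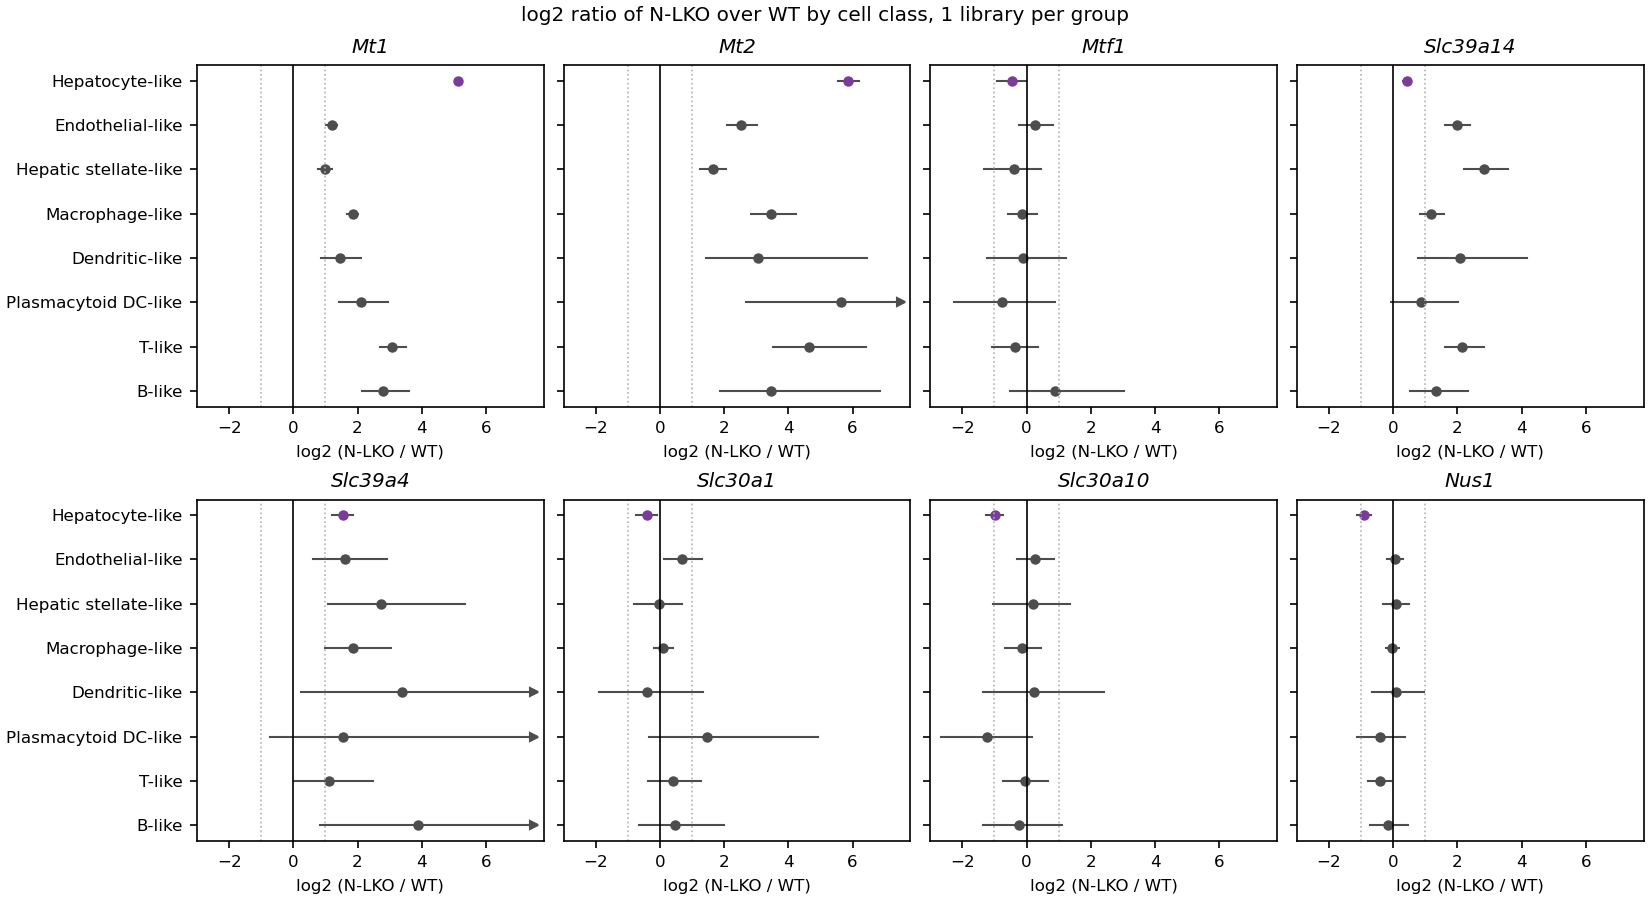
Log2 ratio of N-LKO over WT for the 7 genes and Nus1 in the 8 classes with at least 200 cells in each library. Points are ratios of summed UMIs with 0.5 UMI added, lines are 95% counting intervals (arrows run past the axis), and dotted lines mark a 2-fold ratio. Hepatocyte-like cells (purple) show the highest ratio for Mt1 (5.14) and the highest point for Mt2 (5.86). For Mt2 the intervals of plasmacytoid dendritic-like, T-like, B-like and dendritic-like cells reach past that point, so the classes cannot be ranked. The intervals of Mtf1 include 0 in every class but hepatocyte-like cells.

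The share of cells with a metallothionein UMI was also highest in N-LKO hepatocyte-like cells. After thinning each cell to 1000 UMIs, 3.69% (3.32 to 4.08) of WT and 59.7% (57.5 to 61.8) of N-LKO hepatocyte-like cells held an Mt1 UMI. Without thinning the shares were 5.67% and 75.0%, at medians of 1519 and 1941 UMIs. T-like cells, shown for comparison, held an Mt1 UMI in 3.20% of WT and 24.8% of N-LKO cells after thinning, at medians of 1190 and 1360 UMIs. The WT share of hepatocyte-like cells was thus at the level of T-like cells, and the N-LKO share was above it. T-like cells carried less background by the marker estimate in WT (45.6% of their UMIs against 84.5%), and in N-LKO their Mt1 level was above it, so they are a comparison and not a measure of the background in hepatocyte-like cells. For Mt2 the thinned shares were 0.452% (0.330 to 0.604) and 23.3% (21.6 to 25.2) in hepatocyte-like cells, against 0.337% and 8.28% in T-like cells.

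**Figure D3:**
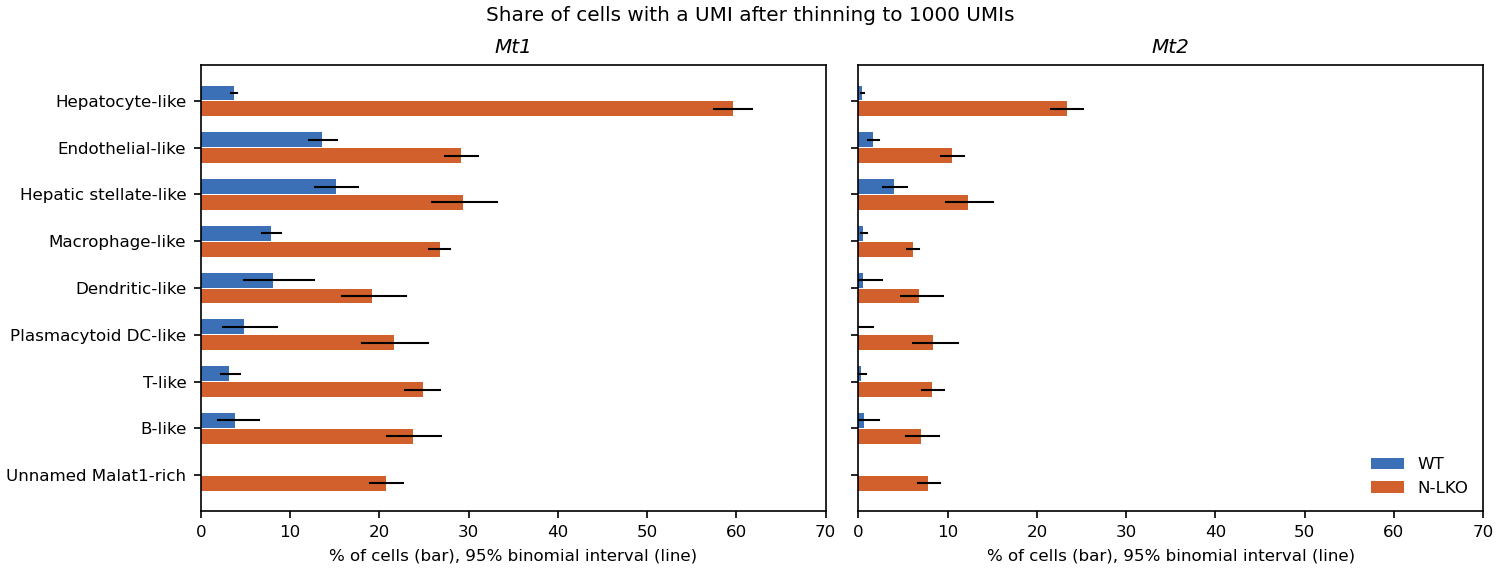
Percent of cells of each class with an Mt1 (left) or Mt2 (right) UMI after thinning every cell to 1000 UMIs; bars are shares in 1 library and lines are 95% binomial intervals. Among WT classes hepatic stellate-like cells had the highest Mt1 share, and in N-LKO hepatocyte-like cells stood at 59.7%, above the 19.2% to 29.4% of the other named classes.

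The N-LKO signal was uneven between cells. The median N-LKO hepatocyte-like cell held 2 Mt1 UMIs and the highest held 40, and the 211 cells with most Mt1, about 10% of the class, held 41.5% of its Mt1 UMIs. At 1000 UMIs per cell, 8.65% of N-LKO hepatocyte-like cells held at least 5 Mt1 UMIs, against 0.0804% of WT hepatocyte-like cells and 0.259% of N-LKO T-like cells. The 2 genes were often found in the same cells. Of the 491 N-LKO hepatocyte-like cells with an Mt2 UMI, 81.7% (78.0 to 85.0) also held Mt1, against 53.0% (50.5 to 55.4) of the 1612 without. In N-LKO T-like cells these shares were 31.9% (24.7 to 39.7) and 24.2% (22.2 to 26.3).

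The balance of the 2 genes also differed between classes. Mt2 made up 16.4% (15.6 to 17.2) of the Mt1 plus Mt2 UMIs in N-LKO hepatocyte-like cells and 23.8% (22.6 to 25.1) in the N-LKO background. In the N-LKO hepatic stellate-like, endothelial-like and T-like cells it was 25.7%, 23.1% and 22.5%, near the share of the background, while macrophage-like cells were at 15.9% (14.6 to 17.2) and B-like cells at 17.7% (14.3 to 21.6). In WT the share was 10.5% (8.53 to 12.8) in hepatocyte-like cells, 9.02% (6.73 to 11.8) in the background, 17.99% (14.4 to 22.0) in hepatic stellate-like and 5.69% (3.46 to 8.74) in macrophage-like cells.

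Levels within the hepatocytes depended on the cluster. In cluster 1, which held 8173 of the WT hepatocyte-like cells, Mt1 was at 31.4 CPM and Mt2 at 3.30 CPM. Cluster 10, poor in Malat1, held 78.4 CPM of Mt1 and cluster 18, rich in Malat1, held 33.8 CPM. Both were above the 40.5 and 20.8 CPM that background alone would give, beyond counting error. In the WT cells of cluster 1 background alone would give 53.3 CPM, above the level measured. Cluster 21, whose leading genes include the pericentral enzymes Glul and Oat, was lowest, with 2 Mt1 UMIs (7.99 CPM) and 0 Mt2 UMIs in 161 cells. In N-LKO, cluster 6 held Mt1 at 1595 CPM and Mt2 at 314 CPM. The unnamed cluster 7 held Mt1 at 241 CPM and Mt2 at 76.6 CPM, below the 272 and 85.1 CPM that background alone would give. The high N-LKO level of both genes was thus measured in cluster 6 and not in cluster 7.

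A few cells of each library fell in the other library's cluster. The 116 WT cells of cluster 6 held Mt1 at 685 CPM (581 to 802) and Mt2 at 111 CPM (71.9 to 164). The other WT clusters reached at most 78.4 CPM of Mt1 and 7.63 CPM of Mt2 (cluster 10). Without the 3 of these cells whose barcode was also present in N-LKO, the values were 669 and 115 CPM. The 91 N-LKO cells of cluster 1 held Mt1 at 540 CPM (432 to 668) and Mt2 at 76.3 CPM (39.4 to 133), the latter below the 89.0 CPM that background alone would give. Both genes were open to the clustering, so membership of cluster 6 is not independent of them. The summed level of 12 IL-6 and STAT3 target genes was 8055 CPM in the WT cells and 8722 CPM in the N-LKO cells of cluster 6, against 3722 CPM in the WT and 6216 CPM in the N-LKO cells of cluster 1. The WT cells of cluster 6 were also above those of cluster 1 for the summed NRF2 targets (1396 against 842 CPM) and the isolation response genes (573 against 389.5 CPM). The part of these in the metallothionein levels was not tested.

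**Figure D4:**
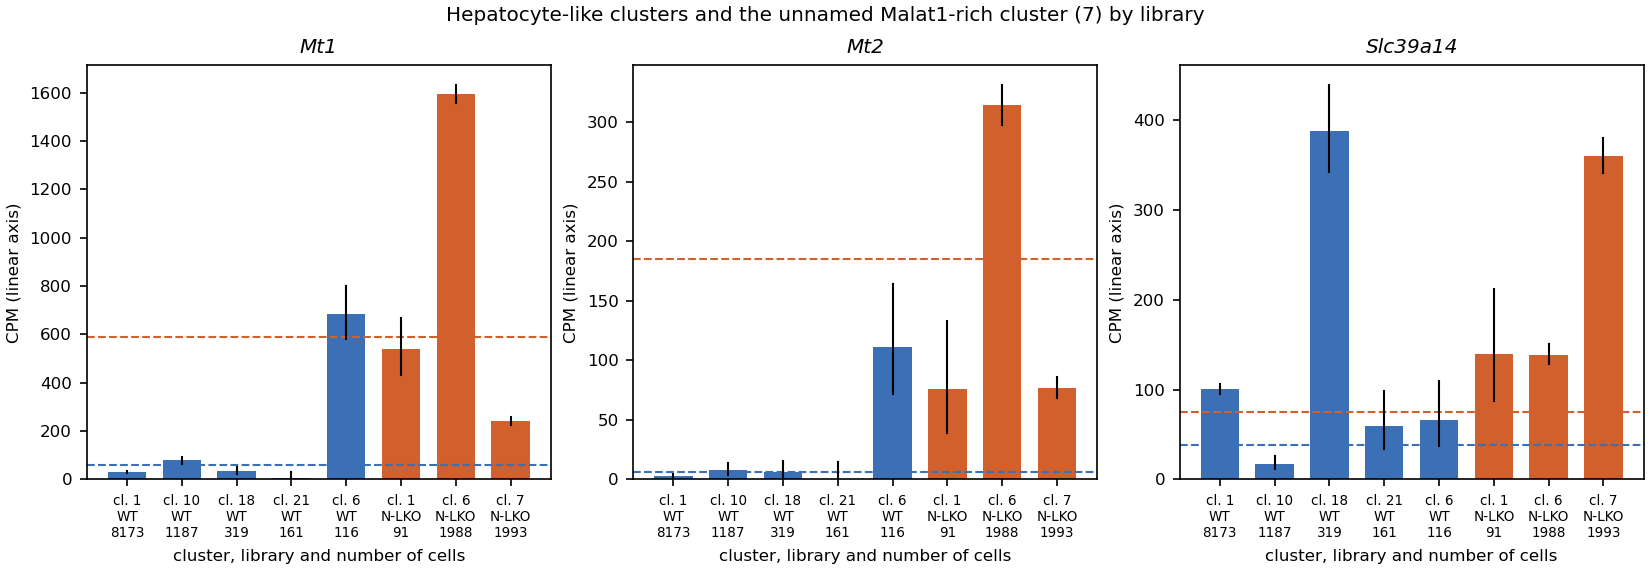
Mt1, Mt2 and Slc39a14 in CPM (linear axes from 0) in the hepatocyte-like clusters and the unnamed cluster 7, by library and with the number of cells. Bars are summed UMIs, black lines 95% counting intervals and dashed lines barcodes under 500 UMIs. Mt1 and Mt2 are high in cluster 6 of either library, while Slc39a14 is highest in the Malat1-rich clusters 18 (388 CPM) and 7 (360 CPM).

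Mtf1, which encodes the metal-sensing factor, was low and nearly level across classes. Hepatocyte-like cells held 15.6 CPM (WT, 13.8 to 17.7) and 11.4 CPM (N-LKO, 8.57 to 14.96), with a log2 ratio of −0.44 (−0.91 to −0.02). Its background was 14.8 (WT) and 7.54 CPM (N-LKO). In the other 7 classes it lay between 9.59 and 25.9 CPM in WT and between 13.3 and 24.7 CPM in N-LKO, and every interval of its ratio there included 0. In cluster 7 it was at 26.4 CPM. Counting this cluster as hepatocyte-like turned the ratio to 0.22, where the median of all genes was 0.38.

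Slc39a14 (ZIP14), an importer of zinc, manganese and iron that liver raises in inflammation, was slightly higher in N-LKO hepatocyte-like cells. Its level was 104 CPM (98.9 to 109) in the WT class against 139.6 CPM (129 to 151) in the N-LKO class, with a log2 ratio of 0.43 (0.30 to 0.56), above a background of 37.8 and 75.3 CPM. Its level varied more between clusters than between libraries. It was 101 CPM in cluster 1 of WT and 139 CPM in cluster 6 of N-LKO, against 388 CPM (342 to 439) in cluster 18 of WT and 360 CPM (342 to 380) in cluster 7 of N-LKO. The last 2 clusters were those rich in Malat1, at 35793 and 20130 CPM, and cluster 10 of WT, with 1538 CPM of Malat1, held 17.4 CPM of Slc39a14. Because cluster 7 is not in the class, the ratio depends on it, and with cluster 7 counted it was 1.21, where the median of all genes was 0.38. Under a mitochondrial limit of 10%, which left 675 WT and 222 N-LKO cells, it was −0.49. With the background subtracted it was −1.33, where the median of all genes was −1.12.

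Outside hepatocytes the ratio of Slc39a14 was larger. Endothelial-like cells held 27.8 CPM (WT) and 111 CPM (N-LKO) (log2 ratio 1.99, 1.61 to 2.39), and hepatic stellate-like cells 13.7 and 99.3 CPM (2.83, 2.20 to 3.57). Macrophage-like cells held 20.2 and 46.3 CPM (1.19, 0.83 to 1.58) and T-like cells 17.2 and 77.8 CPM (2.16, 1.60 to 2.81). In these 4 classes the N-LKO levels were above the 25.0 to 33.7 CPM that the background would give. The WT levels of T-like cells (17.2 against 17.3 CPM expected) and hepatic stellate-like cells (13.7 against 8.92 CPM expected) were not above it beyond counting error, so these ratios are taken over a WT level at the background. That estimate rests on the hepatocyte markers of each class. Cluster 7 had few of these markers and much Slc39a14, and its part in these values was not tested.

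Slc39a4 (ZIP4), the importer of dietary zinc in the intestine, was low in liver cells. Hepatocyte-like cells held 10.6 CPM (9.09 to 12.3) in the WT library against 30.6 CPM (25.8 to 36.1) in the N-LKO library, a log2 ratio of 1.53 (1.20 to 1.86). The background differed alike, with 5.02 and 26.2 CPM. With the background subtracted the ratio was −0.28, or 0.84 relative to the median of all genes. No other named class exceeded its expected background beyond counting error in either library. WT B-like and dendritic-like cells held 0 Slc39a4 UMIs, which allows up to 8.84 and 10.6 CPM.

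Slc30a1 (ZnT1), the exporter at the plasma membrane and a target of MTF-1, did not follow the metallothioneins. In hepatocyte-like cells 26.9 CPM (24.5 to 29.5) stood against 20.3 CPM (16.4 to 24.8), WT first, with a log2 ratio of −0.40 (−0.74 to −0.08). With the background subtracted it was −2.25, or −1.13 relative to the median of all genes. Its highest level was in macrophage-like cells, at 38.1 (WT) and 40.9 CPM (N-LKO), with a ratio of 0.10 (−0.19 to 0.40). Endothelial-like cells held 15.2 (WT) and 24.6 CPM (N-LKO), a ratio of 0.69 (0.12 to 1.31).

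Slc30a10 (ZnT10), which exports manganese in liver, was also lower in N-LKO hepatocyte-like cells. The WT class held 55.8 CPM (52.3 to 59.5) and the N-LKO class 28.1 CPM (23.4 to 33.3), with a log2 ratio of −0.99 (−1.27 to −0.73), just inside a 2-fold difference. With the background subtracted it was −2.57, or −1.44 relative to the median of all genes. In cluster 7 it was at 60.4 CPM (52.8 to 68.7), near the 58.1 CPM of cluster 1 in WT. With cluster 7 counted as hepatocyte-like the ratio was −0.39, where the median of all genes was 0.38. The other classes lay between 9.53 and 31.6 CPM in WT and between 10.7 and 20.3 CPM in N-LKO, and each interval of the ratio included 0.

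Of the 7 genes, 3 (Mt1, Mt2 and Slc39a4) were at least 2-fold higher in N-LKO hepatocyte-like cells and 0 at least 2-fold lower. Over all genes tested in this class, 5.51% were at least 2-fold higher and 3.23% at least 2-fold lower. The choice of genes fixed this count in part, so nothing is read from it. The Malat1-rich and Malat1-poor clusters left out, 3 were higher and 1, Slc30a10, was lower, where 6.21% and 3.13% of all genes were. In endothelial-like cells 4 of the 7 genes were 2-fold higher and 0 lower, where 12% and 7.4% of all genes were. Macrophage-like cells also had 4 higher and 0 lower, where 4.36% and 5.82% of all genes were. T-like cells had 4 and 0 (12% and 8.09% of all genes), B-like cells 4 and 0 (13.3% and 11.8%), and dendritic-like cells 4 and 0 (12.5% and 11.7%). Hepatic stellate-like cells had 3 and 0 (10.6% and 8.05%). Plasmacytoid dendritic-like cells had 4 higher and 1 lower, Slc30a10 with 10 UMIs in each library, where 13.3% and 14% of all genes were. All these counts use ratios before background subtraction. In N-LKO, Mt2 was below its expected background in macrophage-like (61.6 against 64.9 CPM) and B-like cells (65.6 against 79.5 CPM). Slc39a4 in endothelial-like cells was not above it beyond counting error in either library. Nothing is read from the counts in these classes either.

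The wider family of zinc genes in hepatocyte-like cells differed less. Of 29 metallothionein, ZnT, ZIP and Mtf1 genes, 19 reached 5 CPM in 1 library. Of these, 4 were at least 2-fold higher and 0 at least 2-fold lower in N-LKO, where 5.51% and 3.23% of all genes were. Their median log2 ratio was 0.17 against 0.04 over all genes. The list holds the 7 followed genes, picked with their counts known, so nothing is read from the count. The 4 were the followed genes Mt1, Mt2 and Slc39a4, and Slc39a6 (ZIP6), a plasma membrane importer. Slc39a6 went from 2.20 CPM (37 UMIs) to 5.18 CPM (24 UMIs), a ratio of 1.24 (0.43 to 2.01). The exporters into the secretory pathway were within 2-fold, with Slc30a5 at 25.8 and 32.6 CPM, Slc30a6 at 7.08 and 9.71 CPM and Slc30a7 at 19.8 and 22.2 CPM in WT and N-LKO. So were the importers Slc39a1 (38.9 and 27.2 CPM) and Slc39a8 (25.2 and 20.5 CPM). The brain form Mt3 had 1 UMI in WT and 0 in N-LKO, and Mt4 had 0 in both.

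**Figure D5:**
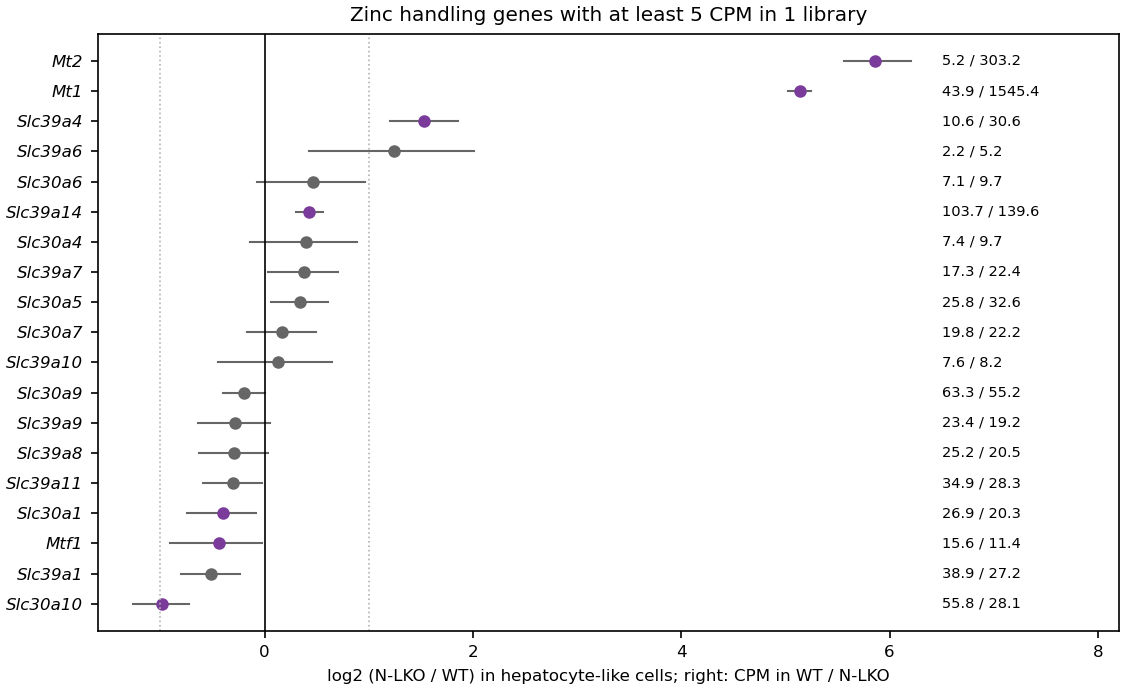
Log2 ratio of N-LKO over WT in hepatocyte-like cells for the 19 zinc handling genes with at least 5 CPM in 1 library, with 95% counting intervals and, at the right, the CPM in WT and N-LKO. Purple points are the 7 followed genes and dotted lines mark a 2-fold ratio. Mt1 and Mt2 stand above 5, Slc39a4 and Slc39a6 lie above 1 and the other genes between −0.99 and 0.47.

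Copper, the other metal bound by metallothioneins, was looked at in the same cells. Of 10 copper handling genes, all above 5 CPM in 1 library, 0 passed a 2-fold difference in either direction. Over all genes of the class 5.51% were at least 2-fold higher and 3.23% at least 2-fold lower. The largest ratio among the copper genes was that of Cp, which encodes the copper protein ceruloplasmin of plasma. It was at 1107 (WT) and 2138 CPM (N-LKO) (log2 ratio 0.95, 0.91 to 0.98). Atp7b, the copper exporter of hepatocytes, was at 15.1 and 11.4 CPM.

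Targets of 3 signals known to act on metallothionein transcription were counted next. Of 12 IL-6 and STAT3 targets, 9 were at least 2-fold higher and 0 lower in hepatocyte-like cells of N-LKO, where 5.51% and 3.23% of all genes were. The median log2 ratio of the list was 2.08. Several of these acute phase genes are discussed in the study, so the list is not independent of these libraries. The acute phase proteins Lcn2 (14.9 to 455 CPM, log2 ratio 4.93), Orm2 (10.2 to 147 CPM, 3.85), Saa2 (46.0 to 495 CPM, 3.43) and Saa1 (78.5 to 762 CPM, 3.28) had the largest ratios. Fgl1 (2.38), Socs3, the feedback inhibitor of the pathway (2.18), Hp (1.98), Steap4 (1.71) and Orm1 (1.55) were the others, and Hamp, which encodes the iron hormone hepcidin, was at 2150 and 2249 CPM. Background alone would give 69.6 (WT) and 143 CPM (N-LKO) of Saa1 and 6.73 and 79.3 CPM of Lcn2.

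Of 10 glucocorticoid targets, 3 were at least 2-fold higher and 1 lower, where 5.51% and 3.23% of all genes were. The higher ones were Fkbp5 (18.7 to 72.7 CPM), Zbtb16 (50.3 to 159 CPM) and Angptl4 (16.3 to 54.2 CPM). Tat, the tyrosine aminotransferase, was lower (874 to 366 CPM). Tsc22d3 (97.0 and 87.6 CPM) and Per1 (4.52 and 7.34 CPM) were within 2-fold, and the median log2 ratio of the list was 0.22. Of 8 NRF2 targets, which respond to oxidative stress, Slc7a11 (1.90 to 6.69 CPM) and Gsta1 (38.3 to 115 CPM) were 2-fold higher and the other 6 were not, with Hmox1 at 23.9 and 23.1 CPM. Expected Slc7a11 from the background was 10.4 CPM in N-LKO, above the level measured.

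Genes that respond to cell isolation also differed. Of 9 with 5 CPM in 1 library, 3 were at least 2-fold higher in N-LKO, where 5.51% of all genes were. They were Fos (42.1 to 89.3 CPM), Fosb (2.38 to 11.01 CPM) and Atf3 (24.7 to 82.9 CPM), and the median log2 ratio of the list was 0.73. Their part in the level of the metallothioneins was not tested. Of 5 pericentral genes expressed, Glul, Oat and Slc1a2 were at least 2-fold lower in N-LKO (log2 ratios −1.50, −1.61 and −1.92), and of 6 periportal genes Cyp2f2 and Hal were (−1.26 and −1.41). Over all genes 3.23% were.

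Over the 8 classes of both libraries, the genes whose level most resembled the mean of Mt1 and Mt2 on the log2(CPM + 1) scale were Angptl4 (Pearson r = 0.88), Cdkn1a (0.87), Rims2 (0.87), Sult1e1 (0.87) and Scn8a (0.87), among 14145 genes. These are descriptions over 16 points, which share 2 libraries and their backgrounds. In hepatocyte-like cells Cdkn1a, which encodes the cell cycle inhibitor p21, was at 18.1 (WT) and 145 CPM (N-LKO). Mt1 and Mt2 themselves had r = 0.93, and the other followed genes ran from −0.29 for Slc30a10 to 0.69 for Slc39a4.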

How the data were processed

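Droplet-based 3′ single-cell libraries of WT and N-LKO liver were used, 1 per group. Per the file headers, Cell Ranger 7.1.0 made the matrices that the authors deposited, which hold raw UMI counts per gene and barcode. The submitters' processing notes name a mouse build older than the reference used here, so only sequences from RefSeq and GENCODE carry coordinates. The authors' cell annotation was not used, so a difference from the study may come from rebuilt names.

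Filters kept barcodes that had 1000 or more UMIs, 400 or more genes and no more than 30% mitochondrial UMIs. Doublets were removed at a Scrublet score of 0.25 (8.55% of WT and 10.6% of N-LKO barcodes; expected rate 10%). With scanpy 1.11.5 and leidenalg 0.10.2, 2000 variable genes, 30 components, 20 neighbors and a resolution of 0.3 gave the clusters, without integration of the libraries. A cluster was named "X-like" from 15 marker lists when the best list scored at least 0.2 with 3 markers raised, and called mixed when an unrelated list reached 0.7 of that score. Kupffer and macrophage clusters form 1 class, and the T-like class also holds natural killer genes. The doublet score and the naming thresholds were set after the data were seen.

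UMIs were summed per class and library and scaled to CPM with exact Poisson intervals. Log2 ratios (N-LKO over WT, 0.5 UMI added) have intervals from the exact binomial test conditional on the summed UMIs, and for shares the intervals are Clopper-Pearson. No p-values were computed, because each group had 1 library. The expected background of a class is the CPM in barcodes under 500 UMIs times the share of its UMIs estimated from markers of other classes. Barcodes were not tested for being empty, so low-UMI barcodes may include cells. The script was tested on simulated data. The genes named are the 7 members in the 8 classes with at least 200 cells in each library, Nus1, genes of the fixed lists past 2-fold in hepatocyte-like cells, and the 5 genes most like Mt1 and Mt2 in pattern. List genes within 2-fold that the text names were chosen after their values were seen. The members and lists were chosen with earlier results of these data known. Alternatives covered UMI and mitochondrial limits, doublets, resolution, background subtraction, centring, Malat1 clusters, the pseudocount and the CPM minimum.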

Additional observations from a re-analysis of the deposited data

Results flagged for a closer look

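Slc30a1 moved in opposite directions in 2 cell classes, beyond counting error in each. Its log2 ratio of N-LKO over WT was 0.69 in endothelial-like cells (36 WT and 85 N-LKO UMIs) and −0.40 in hepatocyte-like cells (452 and 94 UMIs), and the difference between the classes was not tested, since each group had 1 library.

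Barcodes with 500 to under 1000 UMIs entered no comparison, and 4 of the 7 genes were above the WT level there in N-LKO beyond counting error. Over 46124 such N-LKO barcodes Mt1 was at 500.02 CPM, Mt2 at 149.97 CPM, Slc39a14 at 69.4 CPM and Slc39a4 at 22.7 CPM. Over 56087 WT barcodes of this range they were at 66.2, 6.39, 33.2 and 5.72 CPM. Each N-LKO value lay slightly below that of the N-LKO barcodes under 500 UMIs (591, 185, 75.3 and 26.2 CPM). At 500 to under 1000 UMIs Slc30a10 was lower in N-LKO beyond counting error, at 16.1 (14.7 to 17.5) against 26.0 CPM (24.4 to 27.7). Mtf1 was also lower in N-LKO, at 10.9 (9.79 to 12.09) against 13.2 CPM (12.09 to 14.4), and its intervals just met. Those of Slc30a1 overlapped (16.1 CPM for N-LKO, 15.5 CPM for WT). The share of all genes was not counted in this range, so nothing is read from the count of 4.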

How the results depend on the processing

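No paired analysis was possible because each group had 1 library, and for the same reason no replicate could be left out. In hepatocyte-like cells the log2 ratio of Mt1 was 5.08 to 5.23 under 6 alternatives, 4.24 at a mitochondrial limit of 10% and 4.44 with cluster 7 counted as hepatocyte-like, an alternative added after seeing the data. That of Mt2 was 4.31, 5.27 and, with the background subtracted, 8.15. The value of 8.15 rests on 3.52 WT UMIs left of 87, at a WT level not above the background beyond counting error. Subtraction gave no ratio for Mt1 and no Mt2 share in WT, because too few WT UMIs were left. It moved the median of all genes to −1.12 and turned the ratios of Slc39a14 to −1.33 and Slc39a4 to −0.28 (−0.21 and 0.84 relative to that median). It left 1 of the 7 genes higher and 3 lower, and 1 zinc handling gene higher and 12 lower. Over all genes with a value after subtraction, 10.3% were at least 2-fold higher and 54.3% at least 2-fold lower. The mitochondrial limit turned Slc39a14 to −0.49, where the median of all genes was −0.14. Counting cluster 7 turned Mtf1 to 0.22, where that median was 0.38. The cause was not tested. Slc30a10, at −0.99, passed 2-fold in 4 alternatives beside subtraction (UMI minimum of 2000, mitochondrial limit, centring on the median of all genes, and without Malat1-rich or -poor clusters). These gave 1 member and 1 zinc handling gene lower (2 zinc genes at the mitochondrial limit). Over all genes, 2037 of 10697 were at least 2-fold lower at the mitochondrial limit. At the UMI minimum 424 of 10020 were, and without the Malat1 clusters 312 of 9965. With no CPM minimum 7 zinc handling genes were higher. The share of all genes was not counted there or under centring, so nothing is read from these counts. The share of hepatocyte-like cells with an Mt1 UMI was 5.67% in WT and 75.0% in N-LKO without thinning, 6.07% and 68.0% at the mitochondrial limit, and 40.7% in N-LKO with cluster 7. For Mt2 it was 0.713% and 38.2% without thinning, 1.04% in WT at the mitochondrial limit and 15.8% in N-LKO with cluster 7. The Mt2 share of Mt1 plus Mt2 UMIs was 14.1% in WT and 14.9% in N-LKO at the mitochondrial limit and 14.9% in N-LKO after subtraction. At this depth Mt1 and Mt2 in WT hepatocyte-like cells as a class were not above the background at its joint estimate. In the WT cells of cluster 6 both genes were above the background estimated for that cluster. In the WT cells of clusters 10 and 18 Mt1 was also above it and Mt2 was not.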
